A study of Mus musculus with 18 samples.

Results

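Control liver was compared with control quadriceps (QU) muscle in 6 of the 18 RNA-seq libraries of a high-salt diet study, chosen by their labels: CON14L, CON16L and CON72L from liver and CON16M, CON71M and CON72M from muscle. The mice were male wild type C57BL/6 animals of 18 weeks that had received chow and tap water (CON), with no transgene and no salt load, and the whole tissue was homogenised without sorting. The same contrast was also read in the 6 liver and muscle libraries of the mice on the high-salt diet (HSD), which had been given salted chow and saline to drink. The deposited values are FPKM, fragments per kilobase of gene scaled to the fragments of the library, for 21899 genes, and 11500 of them had a mean of at least 0.5 FPKM over the 6 libraries and were tested. The labels do not say whether libraries that carry one number, such as CON16L and CON16M, came from one mouse, and the p-values measure only the spread between these samples.

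Hepatocytes, which make up most of the liver, release albumin, clotting factors and lipoproteins into the blood, make bile acids and glucose, and turn the nitrogen of amino acids into urea. Skeletal muscle fibres are long cells with many nuclei, packed with actin and myosin filaments that slide past each other when calcium leaves the sarcoplasmic reticulum, and fast fibres draw their ATP from creatine phosphate and glycogen. Many steps of metabolism run in both tissues but through a different gene of the same family, such as the liver and muscle forms of glycogen phosphorylase.

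The tissues were first checked against their markers. Alb (ENSMUSG00000029368, chr5:90460897-90476602), which encodes serum albumin, stood at 5154, 34685 and 26057 FPKM in CON14L, CON16L and CON72L and at 0.322, 23.4 and 8.25 FPKM in CON16M, CON71M and CON72M. Ttr (ENSMUSG00000061808, chr18:20665280-20674321), the plasma carrier of thyroid hormone and retinol-binding protein, stood at 529, 6190 and 5127 FPKM in liver and at 0.127, 4.98 and 1.81 FPKM in muscle. No liver library came near a muscle library for either gene, and CON14L was the lowest of the liver libraries for both. Myh4 (ENSMUSG00000057003, chr11:67238029-67260446), the myosin heavy chain of the fastest fibres, stood at 9954, 7434 and 8507 FPKM in muscle and at 0.545, 135 and 0.418 FPKM in CON14L, CON16L and CON72L. Ckm (ENSMUSG00000030399, chr7:19404776-19422841), the creatine kinase of muscle, stood at 4389, 4328 and 4516 FPKM in muscle and at 0.495, 239 and 0.113 FPKM in liver. The groups did not overlap for any of the 4 markers, but CON16L held both muscle genes at more than 100 FPKM while the other liver libraries held them below 1 FPKM.

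**Figure D1:**
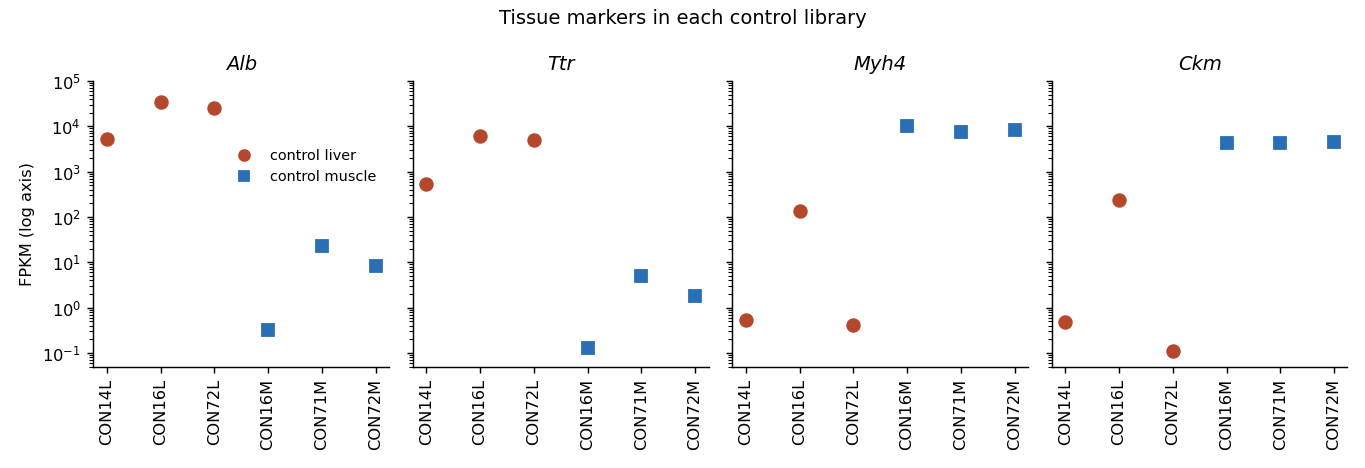
Expression of Alb, Ttr, Myh4 and Ckm in each control library, in FPKM on a log axis, with liver libraries as circles and muscle libraries as squares. Alb and Ttr are high in all 3 liver libraries, Myh4 and Ckm are high in all 3 muscle libraries, and CON16L lies at 135 FPKM of Myh4 and 239 FPKM of Ckm.

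The 250 bases before the start site of Alb, Myh4 and Ckm are shown because these genes mark the tissues and are among those with the largest differences. They come from RefSeq on build GRCm38.p6, 5′ to 3′ on the plus strand, which is the strand of all 3 genes, at chr5:90460620-90460869 for Alb, chr11:67237562-67237811 for Myh4 and chr7:19410844-19411093 for Ckm. The RefSeq start of Ckm lies inside the gene body that the annotation of the expression values gives. Those of Alb and Myh4 lie upstream of the gene starts in that annotation. Capitals mark matches to 6 motifs searched on both strands: GTTAAT (HNF1), TTGCNNAA (C/EBP), TGTTTAC (FOXA), CAGCTG (E-box of the myogenic factors), TAAAAATA (MEF2 core) and, for binding of the general transcription machinery, TATAAA. The E-box letters read the same on both strands, the other motifs may match on either, and a MEF2 match can overlap the last of these motifs.
Alb: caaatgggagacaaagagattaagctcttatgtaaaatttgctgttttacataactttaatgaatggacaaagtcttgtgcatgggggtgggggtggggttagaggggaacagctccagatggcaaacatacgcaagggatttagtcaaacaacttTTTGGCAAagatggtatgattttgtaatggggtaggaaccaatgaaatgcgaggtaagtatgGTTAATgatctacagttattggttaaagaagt
Myh4: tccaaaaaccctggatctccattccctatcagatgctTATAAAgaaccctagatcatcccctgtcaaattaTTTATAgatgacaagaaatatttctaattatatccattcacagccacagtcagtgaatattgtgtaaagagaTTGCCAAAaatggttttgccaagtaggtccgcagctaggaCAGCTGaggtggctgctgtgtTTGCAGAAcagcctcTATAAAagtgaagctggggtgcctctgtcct
Ckm: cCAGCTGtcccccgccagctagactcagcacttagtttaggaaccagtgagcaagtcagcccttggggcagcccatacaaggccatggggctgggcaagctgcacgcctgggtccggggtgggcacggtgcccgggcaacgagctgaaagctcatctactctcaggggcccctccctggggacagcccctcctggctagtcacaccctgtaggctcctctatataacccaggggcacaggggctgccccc

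The Alb window held the HNF1 motif from -32 to -27 and a C/EBP match from -94 to -87, counted from the RefSeq start site. The C/EBP letters leave the bases at N open, so a match is a loose one. The Myh4 window held an E-box from -67 to -62, a TATAAA match from -31 to -26 with 2 further matches upstream, and 2 C/EBP matches. The Ckm window held 1 E-box, from -249 to -244. The table of promoters gives a single promoter for 22862 genes. The HNF1 motif occurred in 6.68% of these promoters, in 3.97% of the promoters of genes tested and in 20.5% of the 219 promoters found for the 337 genes at least 5 log2 units higher in liver, against 5.04% of the 139 promoters found for the genes at least 5 log2 units higher in muscle. The E-box occurred in 12.7% of all single promoters, in 11.7% of those of genes tested, in 9.59% of the liver promoters and in 30.9% of the muscle promoters. The C/EBP motif followed the first pattern, with 9.60% of all, 7.56% of tested, 20.5% of liver and 9.35% of muscle promoters. TATAAA occurred in 13.6% of all, 7.30% of tested, 18.3% of liver and 19.4% of muscle promoters. FOXA matches were found in 2.18% of tested, 4.11% of liver and 2.88% of muscle promoters, and MEF2 matches in 1.16%, 1.83% and 4.32%. These are counts of letters in a window, with no test. The gene sets come from the fit over all 6 libraries, in which 217 genes pass in muscle, against 311 without CON16L. The shares were not counted without CON16L.

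Whole fragments recovered from the FPKM summed to between 7628071 and 13251235 per library over the listed genes. Mitochondrially encoded genes took 60.8% of them in CON14L, 25.7% in CON16L and 37.8% in CON72L, and 12.3, 16.5 and 14.5% in CON16M, CON71M and CON72M (each within 0.0346 points by a Wilson 95% interval, for counting error only). Because FPKM are scaled to the library total, a larger mitochondrial share by itself makes every nuclear gene read lower. CON14L is the library where this share was highest. It also differed within its nuclear fragments: 494 genes held 50% of them, against 149 in CON16L and 142 in CON72L. Nuclear genes were not all lower in CON14L. Of the liver libraries, Alb was lowest there, while G6pc was highest, at 335 FPKM against 151 in CON16L and 273 in CON72L. The cause was not tested. Pearson's r of log2(FPKM + 0.5) across the genes tested was at least 0.987 between muscle libraries and between 0.840 and 0.942 between liver libraries. CON16L had an r of 0.442 to 0.473 with the muscle libraries, and the other liver libraries one of 0.177 to 0.247. Many values that rest on CON16L are therefore given with and without it.

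Each gene was tested by limma on log2(FPKM + 0.5), and was called higher in a tissue when it differed by at least 1 on the log2 scale, which is 2-fold, with an adjusted p (Benjamini-Hochberg) below 0.05. All differences below are liver minus muscle on this scale, on which low genes change by less than their true fold. In liver, 1892 genes were called higher (16.5% of those tested), and in muscle 4320 (37.6%), while 5288 (46.0%) were not called. Without CON16L, 1915 genes (16.6% of 11532) were called higher in liver and 4738 (41.1%) in muscle. The median difference of all genes tested was -0.59, and -0.68 without CON16L. Median-ratio scaling, which sets the median gene of the libraries level, moved this median to -0.06 and the counts to 2753 (23.9%) in liver and 2774 (24.1%) in muscle, so the excess of muscle genes depends on the scaling. In bulk tissue, fewer cells of a type and less RNA per cell cannot be told apart. The smallest p of an exact permutation test of 3 libraries against 3 is 0.1, and p-values of single genes are those of limma, adjusted over all genes tested.

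Many differences were large: 337 genes were at least 5 log2 units higher in liver and 217 in muscle, and 311 in muscle without CON16L. Of the genes called in all 6 libraries, 1790 in liver and 4261 in muscle were also called without CON16L, and, among genes tested in both fits, 425 muscle genes were called only without it. The HSD libraries of other mice gave 2141 genes higher in liver (19.1% of 11232) and 3759 in muscle (33.5%). Of the control calls tested there, 1711 of 1829 in liver (93.5%) and 3501 of 4224 in muscle (82.9%) were called in the same direction, and 0 in the opposite one. They make up 81.2% of the HSD liver calls and 93.7% of the HSD muscle calls tested in both diets.

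**Figure D2:**
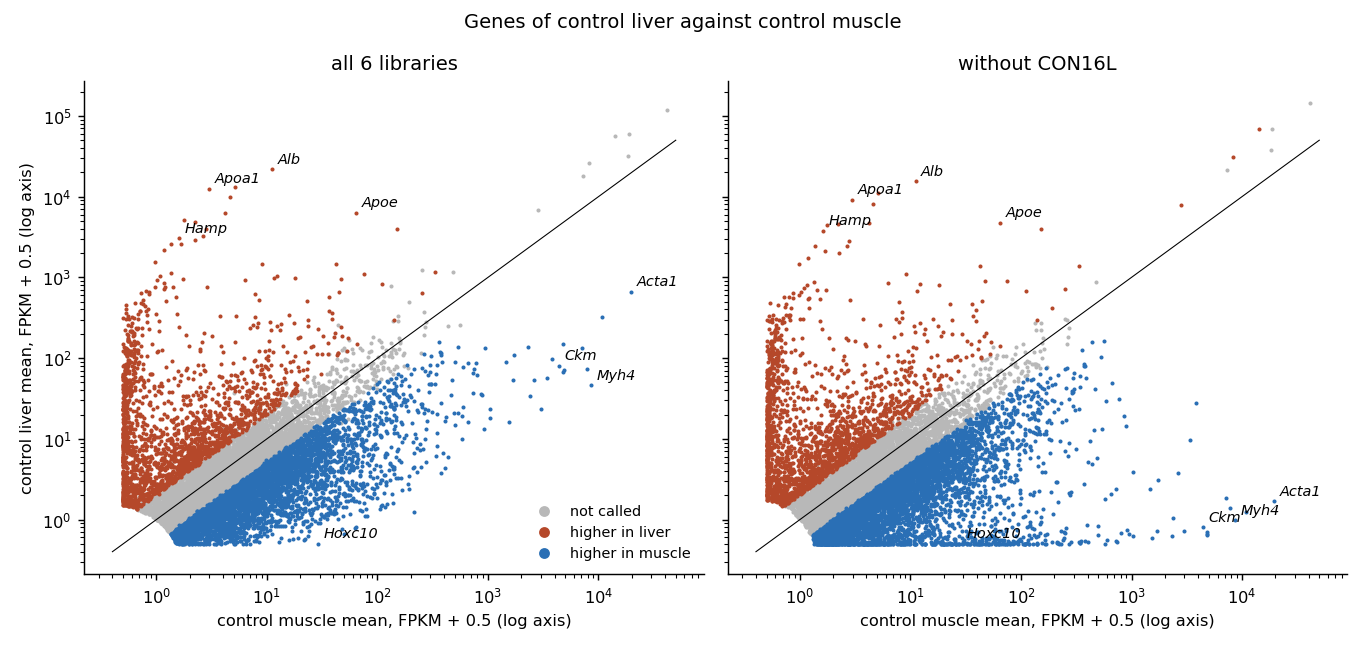
Mean FPKM + 0.5 of each tested gene in control muscle (x) and control liver (y), both on log axes, over all 6 libraries and without CON16L; the line marks equal levels, and colours mark the calls. Without CON16L, Acta1, Myh4 and Ckm move to the lower edge, and the liver genes Alb, Apoa1, Hamp and Apoe keep their place.

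Most of the abundant nuclear transcripts of liver encode secreted proteins. The 10 genes of highest mean FPKM were Alb, Apoa2, Apoa1, Mup3, Apoe, Mup20, Fabp1, Apoc1, Ttr and B2m. Apolipoproteins A1, A2, C1 and E coat lipoprotein particles, the major urinary proteins carry pheromones, Fabp1 binds fatty acids inside the hepatocyte, and B2m, the light chain of MHC class I, is made by nearly every cell. Apoa1 (ENSMUSG00000032083, chr9:46228580-46230466) stood at 5512, 19417 and 12703 FPKM in liver and at 0.488, 4.51 and 2.46 FPKM in muscle. It had the largest difference of all called genes with separate groups, 12.14 ± 0.74 (SE, adjusted p = 1.61e-05). Alb differed by 11.55 ± 1.32 (adjusted p = 0.000238), and took 3.08, 10.9 and 9.82% of the nuclear fragments of CON14L, CON16L and CON72L. The other genes among the 10 largest differences in liver were Fabp1, Apoa2, Mup3, Apoc1, Hamp, Mup17, Gc and Apoc3, from 10.85 (Apoc3) to 11.60 (Fabp1). Hamp, the hormone hepcidin that limits the export of iron, stood at 2435, 1551 and 5154 FPKM in liver, with CON16L the lowest, and at 0.184, 2.27 and 0.872 FPKM in muscle. The Mup genes, and further on the Serpina1, Cyp2d and globin genes, have near-identical copies between which the counting could split reads, so their single values are uncertain.

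Small amounts of the most abundant liver transcripts were also read in muscle. The median member of the plasma protein list stood at 0.00521% of its liver mean in CON16M, at 0.134% in CON71M and at 0.0693% in CON72M. CON71M was the highest of the muscle libraries for this list, and for the apolipoprotein, coagulation, bile acid and P450 lists as well. The part of this in the muscle levels of liver genes was not tested.

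The most abundant nuclear transcripts of muscle encode the contractile apparatus and its energy supply. The 10 genes of highest mean FPKM were Acta1, Tnnt3, Myh4, Pvalb, Mylpf, Atp2a1, Tnni2, Myl1, Ckm and Aldoa. Acta1 (ENSMUSG00000031972, chr8:123891769-123894751), the actin of skeletal muscle, stood at 21587, 17694 and 19683 FPKM in muscle and at 1.37, 1994 and 0.996 FPKM in CON14L, CON16L and CON72L. Its difference was -10.11 ± 2.59 (adjusted p = 0.0100) over all libraries and -13.52 without CON16L, the largest of that comparison in muscle. With limma voom on whole fragments recovered from the FPKM, Acta1 and Tnnt3, the fast troponin T, were not called in all 6 libraries (adjusted p = 0.102 for Acta1). Myh4 differed by -10.72 ± 1.82 (adjusted p = 0.00147), and by -13.10 without CON16L, and took 6.83, 5.36 and 5.99% of the nuclear fragments of CON16M, CON71M and CON72M. Atp2a1, the calcium pump of the fast sarcoplasmic reticulum, differed by -10.01 and by -12.77 without CON16L, and Pvalb, the calcium buffer parvalbumin, by -10.05 and -12.49. Myl1, Tnnt3, Actn3, Ckm, Tnni2 and Mylpf complete the 10 largest differences in muscle, and the same 10 genes led without CON16L.

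Few genes were read in 1 tissue only. At 1 FPKM or more in every liver library and at 0 in every muscle library were 96 genes, all protein-coding, led by Mup18 with 101, 334 and 493 FPKM, Mup16, Apoc4 and Hsd17b2, the enzyme that oxidises estradiol. The reverse held for 17 genes over all 6 libraries, and for 242 when muscle was set against CON14L and CON72L alone. Hoxc10 led the 17, with 32.7, 24.3 and 28.6 FPKM in muscle and 0 in all liver libraries, which at a floor of 3 fragments per library makes muscle at least 167-fold higher. It was followed by Amd2, a gene of polyamine synthesis with a close copy and therefore uncertain, at 6.73, 6.51 and 6.28 FPKM, and Hoxc9.

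In the groups of genes that follow, each count over all 6 libraries has as its background the share of all tested genes called. This share is 16.5% in liver and 37.6% in muscle, and the median of all genes is -0.59. For counts without CON16L the background is 16.6% and 41.1%, and for counts after median-ratio scaling 23.9% and 24.1%. Beside the most abundant members, the largest difference and the members that went against the rest, other genes are named as known examples, chosen after their values were seen. The lists of plasma proteins were entirely on the liver side. All 29 tested plasma carriers and protease inhibitors were called higher in liver, with a median of 8.44, as were all 14 apolipoproteins (median 7.68) and all 34 coagulation and complement genes (median 6.31). Serpina1e stood at 1288, 4665 and 2667 FPKM in liver and at 0.187, 2.09 and 2.99 FPKM in muscle. Fgb and Fgg, 2 of the fibrinogen chains, differed by 8.96 and 8.91. Kng1, the precursor of bradykinin, differed by 9.76, the largest of its list. Complement C3, chosen as a known example, was also read in muscle, at 21.3, 15.4 and 14.5 FPKM against 217, 299 and 289 FPKM in liver, a difference of 3.94.

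Several of these genes lie side by side, and the neighbours went the same way. All 3 fibrinogen genes at chr3:83007724-83049863 were higher in liver, and so were Apoa1, Apoc3, Apoa4 and Apoa5 at chr9:46228580-46271919. At chr7:19671579-19699188, Apoe, Apoc1, Apoc4 and Apoc2 were called and the predicted gene Gm44805 was not tested. Apoa4 and Apoc2 are uncertain, because over 50% of their exon bases are shared with another gene. Next to Alb, the vitamin E carrier Afm was called and the fetal gene Afp, at 0.545, 0.460 and 0.682 FPKM in liver, did not reach the level for testing. On the muscle side, the fast troponin genes Tnni2 and Tnnt3 and Lsp1 between them were all called at chr7:142441808-142516009, and Myh3, Myh2, Myh1 and Myh4 at chr11:67078300-67371586, where Myh8 was not called and Myh13 was not tested.

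Liver metabolism was set apart most by genes of detoxification, bile and nitrogen. All 20 tested cytochrome P450 genes were higher in liver (median 7.49), among them Cyp2d9 and Cyp2d10 (8.95 and 8.93), Cyp3a25 (9.03) and Cyp2e1, which oxidises ethanol and was also read in muscle at up to 11.3 FPKM. Of 17 bile acid genes, 16 were higher in liver (median 6.27). Cyp7a1, the rate-limiting enzyme of bile acid synthesis, stood at 3.02, 9.42 and 13.7 FPKM in liver, where Abcb11, the pump that exports bile salts, stood at 181, 91.2 and 116 FPKM. Baat, which conjugates bile acids, differed by 7.33. Cyp27a1, which starts the alternative pathway, was the member most shared between the tissues, at 215, 152 and 192 FPKM in liver and 48.0, 51.3 and 43.3 FPKM in muscle. The phospholipid pump Abcb4 was not called (-0.40).

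The urea cycle and amino acid list held 31 of 34 genes higher in liver (median 6.62). Arg1, which releases urea, stood at 253, 825 and 870 FPKM in liver and at most at 0.720 FPKM in muscle. Hpd, of tyrosine breakdown, and Tat, the first enzyme of that route, differed by 9.55 and 8.99. Got1, the cytosolic aspartate aminotransferase of the malate-aspartate shuttle, was the only member higher in muscle, at 144, 157 and 138 FPKM against 26.1, 37.6 and 14.3 FPKM (-2.57 ± 0.41, adjusted p = 0.00113). Oat and Aldh4a1 were not called.

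Glucose production was represented by 10 genes, of which 5 were higher in liver and 2 in muscle (median 3.30). G6pc, which releases free glucose, stood at 335, 151 and 273 FPKM in liver and at 0, 0.140 and 0.0370 FPKM in muscle (8.76 ± 0.33, adjusted p = 1.90e-06). Pck1, which makes phosphoenolpyruvate, differed by 7.37. The members higher in muscle were Ppargc1a, a coactivator of mitochondrial genes (-2.20), and Mdh1, a malate dehydrogenase (-2.17), whose call was lost under median-ratio scaling and without CON72L. Pcx, Pck2 and Slc37a4 were not called.

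Fat synthesis leaned to the liver, with some members on the muscle side. Of 17 lipogenesis genes, 11 were higher in liver and 4 in muscle (median 1.71). The liver count is above the 16.5% of all tested genes called there, and the muscle count below the 37.6%. Fasn, the fatty acid synthase, stood at 35.4, 35.7 and 60.8 FPKM in liver and at 4.47, 11.8 and 6.22 FPKM in muscle (2.54). Scd1, which desaturates stearate, differed by 3.18, and Fads2 by 3.93, the largest of the list. Thrsp and the glucose-sensing factor Mlxipl differed by 3.40 and 3.31. The members higher in muscle were Acacb (-2.35), whose product malonyl-CoA restrains the entry of fatty acids into mitochondria, Me1 (-1.96), a source of NADPH, Pnpla3 (-2.35) and Gpam (-1.07), which lost its call under median-ratio scaling. In cholesterol synthesis and uptake, 15 of 21 genes were higher in liver and 0 in muscle (median 1.93). Hmgcs1, Ebp and Sc5d of the synthetic route differed by 3.21, 3.12 and 2.84.

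Fatty acid oxidation did not take 1 side. Of 29 genes tested, 8 were higher in liver and 10 in muscle (median -0.79), 6 and 16 without CON16L, and 10 and 6 after median-ratio scaling, so the side with more calls turned with the scaling. Genes of the peroxisome were among those higher in liver: Acaa1b (8.48), Acaa1a (1.45) and Ehhadh (1.45, not called without CON16L). Cpt1a, the liver form of the carnitine transferase, differed by 2.93, Acsl1 by 1.03 (not called without CON16L) and Etfb by 2.97, the latter uncertain because 58.2% of its exon bases are shared with another gene. Oxct1, without which ketone bodies cannot be used, was on the muscle side, at 144, 165 and 143 FPKM against 0.460, 32.6 and 0.413 FPKM in CON14L, CON16L and CON72L (-5.62 ± 1.30, adjusted p = 0.00635, and -7.33 without CON16L). The trifunctional protein of mitochondrial oxidation was there too, with Hadha at -2.38 and Hadhb at -2.93. Acaa2, the thiolase of the mitochondrion, was not called (0.06).

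Most regulators were higher in the tissue they are known from. Of 22 hepatocyte transcription factors, 19 were higher in liver (median 3.37, or 4.06 with the 6 members at 0 in muscle set to the floor of 3 fragments). Hnf4a stood at 76.9, 62.5 and 70.9 FPKM in liver and below 0.1 FPKM in every muscle library (7.04 ± 0.18). Nr1h4, the bile acid receptor FXR, differed by 7.31 and Cebpa by 4.50. Foxa3 and Creb3l3 were at 0 in muscle, with liver at least 87.7-fold and 716-fold higher. Ppara and Rxra were not called (0.13 and -0.31), and Esrrg, an orphan receptor of oxidative metabolism, was higher in muscle (-2.36). Of 25 muscle factors, 24 were higher in muscle and 0 in liver (median -3.17). Myod1, the master factor of the myogenic programme, stood at 12.7 to 13.5 FPKM in muscle and at 0, 1.02 and 0 FPKM in CON14L, CON16L and CON72L. Myf6, a relative of Myod1 that prevails in adult fibres, stood higher, at 67.1, 76.4 and 79.9 FPKM, and Smyd1, a methyltransferase needed for the sarcomere, at 146, 149 and 146 FPKM. Tbx15, a factor of fast fibres, differed by -6.21 and Ankrd2, which responds to stretch, by -5.17. Hdac5 was not called (-0.85).

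The contractile lists were on the muscle side almost without exception. Of 30 sarcomere filament genes, 29 were higher in muscle (median -6.84) and all 30 without CON16L (median -8.48). The exception over all libraries was Tnnt1, the slow troponin T, at 29.4 to 58.2 FPKM in muscle and 0.0595, 44.7 and 0.694 FPKM in CON14L, CON16L and CON72L (-3.84). Tnnc2, the fast troponin C, was read at 1.23 to 2.55 FPKM in muscle and is uncertain, because 74.0% of its exon bases lie opposite those of another gene. All 32 genes of the Z-disc, M-band and cytoskeleton were higher in muscle (median -6.06, and -7.29 without CON16L). Actn3, the alpha-actinin of fast fibres, differed by -9.85 and Myoz1 by -8.55. Tcap, the cap of titin, differed by -8.74 but was not called without CON72L.

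Excitation-contraction coupling and energy supply followed. Of 32 coupling genes, 29 were higher in muscle (median -5.55), and 31 without CON16L (median -6.30). Ryr1, the calcium release channel, stood at 204, 130 and 125 FPKM in muscle and at 0.0180, 8.27 and 0.0100 FPKM in liver (-6.82). Casq1, which stores calcium, differed by -8.37. Atp2a2, the pump of slow muscle and most other cells, and Mtm1 were not called (-0.68 and 0.21), and neither was Sln, the small regulator of that pump (-1.14). Without CON16L, Atp2a2 and Sln were called higher in muscle (-1.13 and -3.17). All 31 genes of glycogen, phosphagen and oxygen stores were higher in muscle (median -6.15, and -7.39 without CON16L). Eno3 and Aldoa (ENSMUSG00000030695, whose symbol the files give to a second gene as well) of glycolysis differed by -7.19 and -6.06. Mb, myoglobin, stood at 809, 1113 and 920 FPKM in muscle and at 0.176, 400 and 0.147 FPKM in CON14L, CON16L and CON72L (-7.39, and -10.47 without CON16L).

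**Figure D3:**
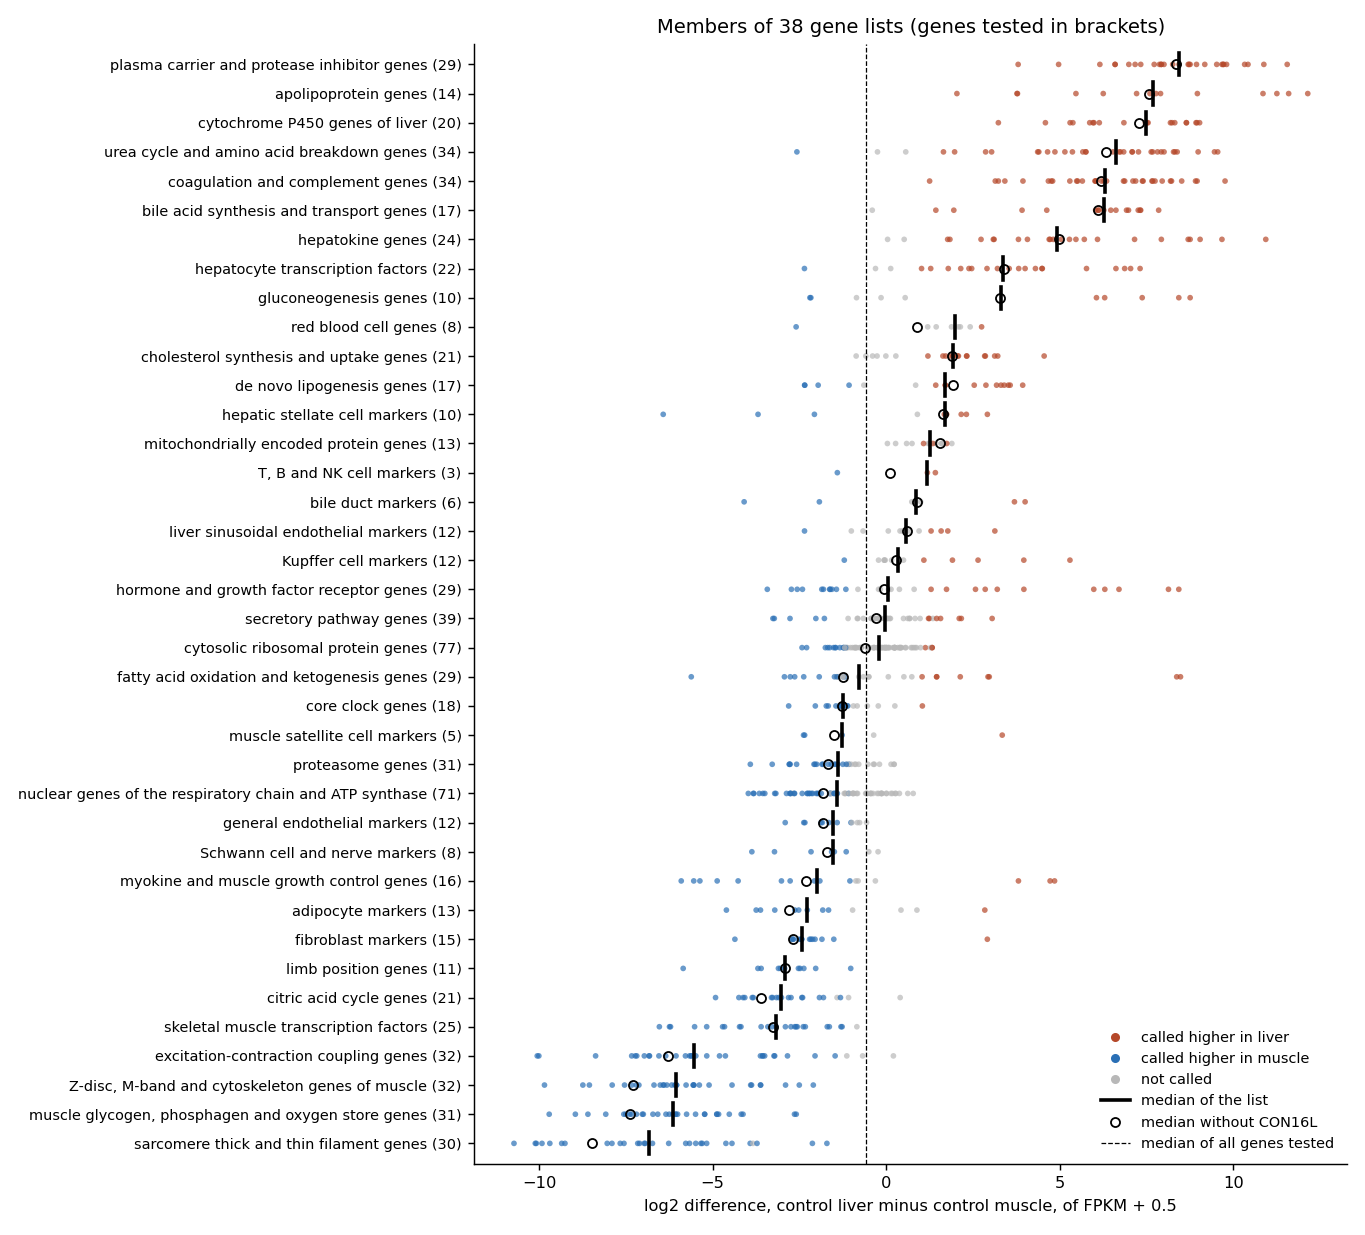
Log2 difference, liver minus muscle, of FPKM + 0.5 for the tested members of 38 gene lists, with the number tested in brackets. Points are genes coloured by call, bars are list medians, open circles are medians without CON16L, and the dashed line is the median of all genes, -0.59. Plasma protein lists lie at the right end, and the 4 contractile and energy lists lie at the left end and move further left without CON16L.

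CON16L was described further, since it decides the size of these differences. Members of the sarcomere list that were called stood in CON16L at a median of 9.83% of their muscle mean, against 0.00793% in CON14L and 0.00484% in CON72L. The medians in CON16L were 9.07% for the Z-disc list, 6.22% for coupling and 9.49% for glycogen and phosphagen genes. Because the calls come from the fit that holds CON16L, members high in CON16L were left out. Tnnt1 of the sarcomere list and Sln of the coupling list, at 97.4% and 848% of their muscle mean, were among them. The medians may therefore read low. The genes were not at 1 share. Of the summed FPKM of Myh1, Myh2, Myh4 and Myh7, Myh4 made up 31.7% in CON16L and 87.6 to 90.1% in the control muscle libraries, Myh1 50.7% and 7.03 to 8.21%, Myh2 15.8% and 2.36 to 3.89%, and slow Myh7 1.79% and 0.120 to 0.344%. Relative to the muscle mean, Myh4 stood in CON16L at 1.57%, Myh1 at 29.2%, Myh7 at 38.7% and Myl2, the light chain of slow fibres, at 71.6%. Sln stood at 34.1 FPKM in CON16L, above the 4.35, 4.04 and 3.66 FPKM of the muscle libraries and the 0 of CON14L and CON72L. These genes were chosen after their values were seen.

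**Figure D4:**
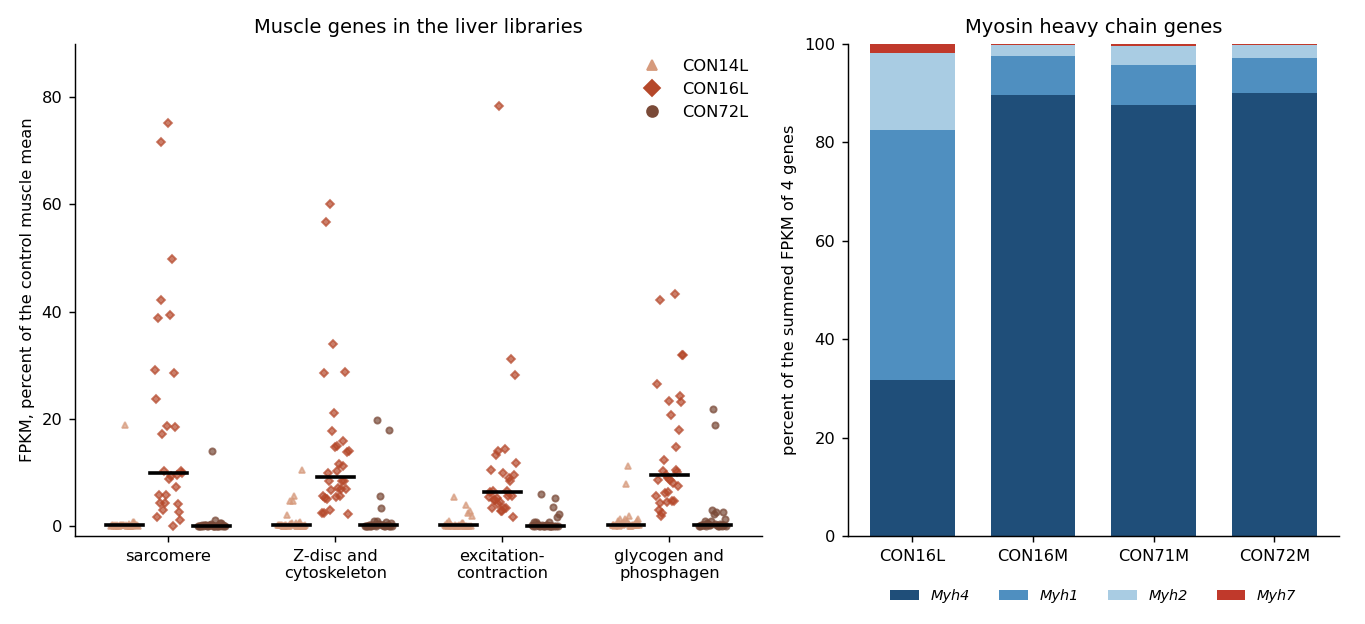
Left, level of muscle genes in each liver library as a percent of the mean of the 3 control muscle libraries, with a point per called gene of 4 lists and a bar at the median. Right, shares of Myh4, Myh1, Myh2 and Myh7 in their summed FPKM in CON16L and the control muscle libraries. CON16L lies at medians of 6.22 to 9.83% and has 31.7% Myh4, against 87.6% or more in muscle.

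Genes that mark the position along the body axis and in the limb were read in muscle and hardly in any liver library. All 11 tested limb position genes were higher in muscle (median -2.93, or -3.11 with 4 members at the floor), and 10 after median-ratio scaling, with a summed level of 63.5 to 66.5 FPKM in muscle, and of 1.29 FPKM in CON14L, 0.175 FPKM in CON72L and 2 FPKM in CON16L. Of these, 4 posterior HOX genes, Hoxa9, Hoxc9, Hoxc10 and Hoxc11, were at 0 in all liver libraries, CON16L included. Hoxa10 was at 0 in CON16L and at 5.40 to 6.87 FPKM in muscle. The call of Hoxa5 (-1.02) was lost under median-ratio scaling.

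Secreted signals and their receptors went in both directions. Of 24 hepatokine genes, 22 were higher in liver (median 4.93, or 5.16 with the 4 members at 0 in muscle set to the floor). Ahsg and Rbp4, which have been linked to insulin resistance, differed by 9.67 and 7.93, Angptl8, which takes part in the control of lipoprotein lipase, by 8.70, and Tsku by 5.04. Selenop and Fgf1 were not called. Of 16 myokine and growth control genes, 10 were higher in muscle and 3 in liver (median -1.99). Mstn, myostatin, which restrains muscle growth, stood at 37.8, 39.8 and 41.3 FPKM in muscle and at 0, 2.03 and 0 FPKM in CON14L, CON16L and CON72L. Cavin4 of the fibre membrane, Fbxo32, a ubiquitin ligase of atrophy, and Igfbp5 differed by -5.91, -5.37 and -4.87. Igf1, the mediator of growth hormone, stood on the liver side, at 54.7, 75.7 and 83.8 FPKM against 2.27, 2.24 and 2.04 FPKM (4.72 ± 0.24, adjusted p = 7.52e-06), with Fgf21 (3.81) and Gdf15 (4.85).

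Of 29 receptor genes, 11 were higher in each tissue (median 0.06). Of all tested genes, 16.5% were higher in liver and 37.6% in muscle, so the muscle count is near that share and the liver count above it. Gcgr, the glucagon receptor, stood at 295, 139 and 212 FPKM in liver and at most at 0.258 FPKM in muscle (8.43). Asgr1, which clears glycoproteins from blood, differed by 8.13 and Fgfr4 by 3.20. Adipor1, a receptor of adiponectin, stood at 62.8, 57.7 and 63.1 FPKM in muscle and 6.08, 14.2 and 7.79 FPKM in liver (-2.73), while Adipor2 was not called (0.14). The transferrin receptors split, with Tfr2 at 6.71 and Tfrc at -3.43. Insr and Ghr were not called (-0.22 and 0.06), with Insr at 6.62, 6.57 and 6.47 FPKM in liver and 8.07, 8.40 and 6.78 FPKM in muscle.

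Of 31 pairs of genes for 1 enzyme or carrier step, 15 were called in opposite directions, with the first gene higher in liver and the second in muscle. The count was also 15 without CON16L, and 20 after median-ratio scaling and in the HSD libraries. Glucose enters through Slc2a2 and the insulin-sensitive Slc2a4, of which Slc2a2 made up 99.1, 66.9 and 98.8% in liver and at most 0.0215% in muscle. Liver and muscle glycogen phosphorylase, Pygl and Pygm, differed by 4.60 and -8.96, and Pygl made up 97.7, 17.9 and 98.6% in liver.

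Further pairs called in opposite directions were Gys2 and Gys1 (glycogen synthase), Pklr and Pkm (pyruvate kinase), Fbp1 and Fbp2 (fructose bisphosphatase), Ppp1r3b and Ppp1r3a, which bring a phosphatase to glycogen, Phka2 and Phka1 (phosphorylase kinase), Ampd2 and Ampd1 (AMP deaminase), Mat1a and Mat2a (S-adenosylmethionine synthase), Fabp1 and Fabp3 (fatty acid binding) and Cox6a1 and Cox6a2 of cytochrome c oxidase. Their first genes differed by 1.14 (Phka2) to 11.60 (Fabp1) and their second genes by -2.41 (Mat2a) to -8.08 (Ampd1). Calls of Fabp3 (adjusted p = 0.0275), Cox6a1 and Cox6a2 were lost without CON72L, and that of Phka2 without CON14L. In 10 further pairs the second gene was higher in muscle and the first was not called: Pfkl and Pfkm, Pgam1 and Pgam2, Eno1 and Eno3, Acaca and Acacb, Cox7a2 and Cox7a1, Cox8a and Cox8b, Slc25a5 and Slc25a4, Atp2a2 and Atp2a1, Phkg2 and Phkg1, and Ucp2 and Ucp3. Cox8b lost its call without CON72L, and Slc25a4, the ADP/ATP carrier of muscle, under voom.

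The remaining 6 pairs followed neither pattern. In 3 pairs both genes were higher in muscle, namely Atp1b1 and Atp1b2 of the sodium pump, the lactate carriers Slc16a1 and Slc16a3, and the lactate dehydrogenase genes Ldhb and Ldha. The calls of Slc16a1 and Ldhb (adjusted p = 0.0436) were lost after median-ratio scaling. Cpt1b and Arg2, the partners of Cpt1a and Arg1, did not reach the level for testing, and the values of Cpt1b are uncertain because 81.4% of its exon bases are shared with another gene. Car3, the partner of Car5a, was not called, with 259, 1720 and 1516 FPKM in liver and 404, 557 and 477 FPKM in muscle. In 30 of 31 pairs, the share of the first gene was higher in every liver library than in every muscle library. The exception was Ldhb, whose share was 9.79, 63.3 and 5.52% in CON14L, CON16L and CON72L and 10.6, 16.4 and 12.0% in muscle.

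**Figure D5:**
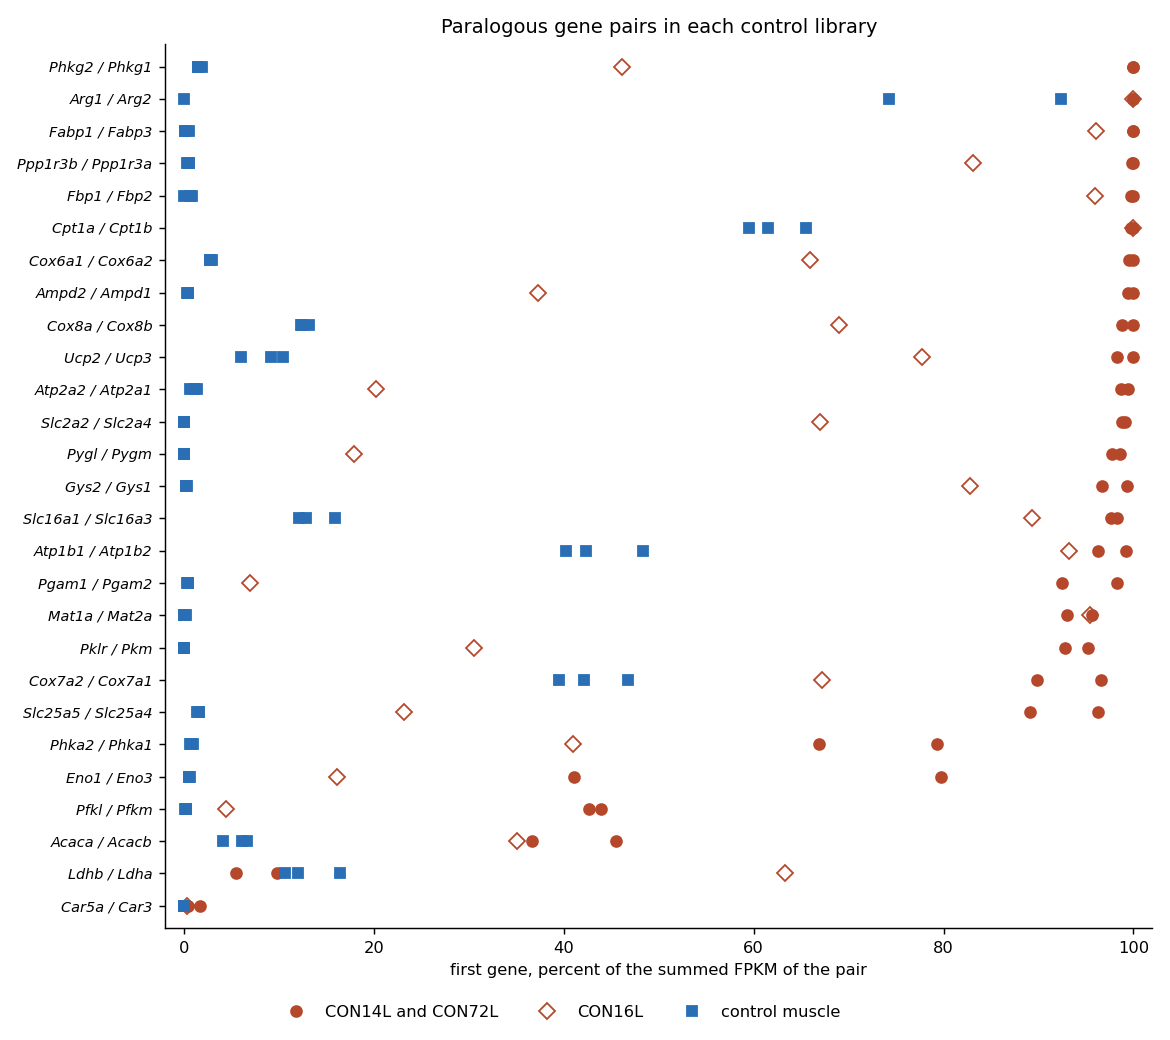
Share of the first gene in the summed FPKM of 27 pairs of related genes, in percent, with liver libraries CON14L and CON72L as circles, CON16L as diamonds and muscle libraries as squares. The shares of liver and muscle libraries are separate in 26 of them, with Ldhb and Ldha as the exception, and CON16L lies between the other liver libraries and muscle in many pairs.

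Mitochondrial and shared machinery depended more on the scaling. After median-ratio scaling, 23.9% of all genes tested were higher in liver and 24.1% in muscle. Of 21 genes of the citric acid cycle, 18 were higher in muscle and 0 in liver (median -3.02). Pdha1, of pyruvate dehydrogenase, stood at 127, 140 and 128 FPKM against 0.948, 18.9 and 2.46 FPKM (-4.92). Sdha differed by -3.83, and Sdhb was not called (-1.42). Of 71 nuclear genes of the respiratory chain and ATP synthase, 33 were higher in muscle and 0 in liver (median -1.42), and 14 in muscle and 2 in liver after median-ratio scaling. Atp5a1 and Atp5b, which encode subunits of ATP synthase, differed by -3.82 and -3.50 and Cox5a by -3.97, while Cox6b1 was not called (-0.14). Of the 13 mitochondrially encoded protein genes, 3 were higher in liver (median 1.25): mt-Co2 at 1470, 717 and 1307 FPKM against 292, 376 and 334 FPKM, mt-Co3 and mt-Atp6. The most abundant, mt-Co1, stood at 171236, 69020 and 114078 FPKM in liver and 34879, 48902 and 40201 FPKM in muscle and was not called (1.43), like mt-Nd2 (1.89) and mt-Cytb (1.59). The 3 called genes were read far below these, and none of the 3 was called in the HSD libraries. Why their levels were so low was not tested, so their calls are uncertain.

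Ribosomal protein genes gave no side that was independent of scaling: 3 of 77 were higher in liver and 12 in muscle (median -0.22), 5 and 26 without CON16L, and 12 and 2 after median-ratio scaling. Rpl4 was higher in muscle (-2.43), Rpl13a, Rpl21 and Rpl38 in liver (1.32, 1.13 and 1.32), the last of which lost its call without CON72L, and Rps15, Rplp1 and Rpl36 were not called. Of 31 proteasome genes, 19 were higher in muscle and 0 in liver (median -1.40), and 10 after median-ratio scaling. Psmb7 differed by -3.92 and Psma6 by -2.05, while Psmb6 and Psmc5 were not called. Of 39 secretory pathway genes, 7 were higher in liver and 5 in muscle (median -0.04), 6 and 8 without CON16L, and 14 and 4 after median-ratio scaling. Calr, a chaperone of the endoplasmic reticulum, differed by 2.10 and P4hb was not called (1.34). Sar1b, Spcs1, Srpr, Srp14 and Tmed2 were higher in muscle (-3.26, -3.22, -2.77, -2.03 and -1.78), with Sar1b at 437, 478 and 493 FPKM against 25.5, 79.0 and 55.7 FPKM. Of 18 clock genes, 12 were higher in muscle and Per2 in liver (median -1.24), and 4 and 1 after median-ratio scaling. Nr1d1 and Bhlhe41 differed by -1.67 and -2.81, and Per2, at 6.13, 5.23 and 11.7 FPKM in liver and 3.38, 3.07 and 3.34 FPKM in muscle (1.04), was not called without CON72L. Tef and Bhlhe40 were not called.

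Markers of the other cells of each tissue were read next. Of 12 Kupffer cell markers, 5 were higher in liver and Cd163 in muscle (median 0.33), with summed levels of 64.5 to 81.6 FPKM in liver and 31.1 to 39.6 FPKM in muscle. Clec4f, the receptor that defines the resident macrophage of liver, stood at 28.6, 13.5 and 18.0 FPKM in liver and at 0 in muscle (at least 199-fold higher in liver). The others were Cd5l (3.96), Vsig4, Marco and Timd4, whereas the complement genes C1qa and C1qb of macrophages in general were not called (0.15 and -0.06). Of 12 sinusoidal endothelial markers, 4 were higher in liver and Kdr in muscle (median 0.56), and the summed levels overlapped, at 20.9 to 29.2 FPKM in liver and 20.6 to 24.6 FPKM in muscle. Clec4g, the lectin LSECtin, was at 0 in muscle (liver at least 41.4-fold higher), and Stab1 and Stab2 were not called (0.40 and 0.47), with 2.05 to 3.09 FPKM in muscle. General endothelial markers were on the muscle side in 8 of 12 cases and on the liver side in 0 (median -1.53), with Cdh5 at -2.91 and Pecam1 at -2.37, while Eng was not called. Their summed level was 33.1, 52.2 and 26.8 FPKM in CON14L, CON16L and CON72L and 109 to 126 FPKM in muscle.

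Of 10 stellate cell markers, 6 were higher in liver, led by Colec11 (2.91), and 3 in muscle, Des (-6.42), Rgs5 (-3.69) and Dcn (-2.07), which fibres, pericytes and fibroblasts also express. Of 6 bile duct markers, 2 were higher in each tissue (median 0.86), with Spp1 at 3.69 and Aqp1 at -4.09. Of 15 fibroblast markers, 14 were higher in muscle (median -2.43), among them Col3a1 (-2.21), Gsn (-4.36, not called under voom) and Dpt (-2.05, not called under median-ratio scaling or without CON72L), and Dpp4 in liver (2.91). Their summed level was 24.4, 119 and 45.7 FPKM in CON14L, CON16L and CON72L and 329 to 444 FPKM in muscle, so that CON16L was the highest liver library here too. Of 13 adipocyte markers, 9 were higher in muscle (median -2.27, or -2.52 with Lep at the floor in liver). Cfd stood at 70.8, 122 and 55.7 FPKM in muscle, Pnpla2 differed by -2.27, and Adrb3 was higher in liver (2.84). Of 8 Schwann cell markers, 6 were higher in muscle (median -1.53), with Pmp22 at -3.22, while Cnp was not called. Of 5 satellite cell markers, 3 were higher in muscle, Cdh15 among them (-2.35), and Sdc4 in liver (3.34, at 84.0, 120 and 93.3 FPKM), while Fgfrl1 was not called. Only 3 of 15 lymphocyte markers were tested, of which 2 were higher in liver, Cd79b among them (1.19), and Cd3e in muscle (-1.41). All 3 lost their call at a pseudocount of 1.

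Red blood cell genes varied within each tissue. Their summed level was 473, 5652 and 846 FPKM in CON14L, CON16L and CON72L and 998, 150 and 254 FPKM in CON16M, CON71M and CON72M, so that the groups overlapped. Of 8 genes, 1 was called in each direction (median 1.98), with Alas2 of haem synthesis higher in liver (2.75, not called without CON71M or CON72M) and Bpgm in muscle. Hba-a1, Hbb-bs and Hbb-bt were not called (2.42, 1.88 and 2.08). CON16L, the liver library with the muscle genes, was also the library with the highest level of globin genes, and the part of blood in its values was not tested.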

How the data were processed

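RNA was extracted with TRIzol from whole liver, epididymal white adipose tissue and QU muscle, depleted of ribosomal RNA and sequenced as paired-end, stranded total RNA libraries. Reads were trimmed by the authors (cutadapt) and mapped to mm10 (HISAT2), and FPKM were calculated with cuffdiff and an Ensembl annotation, whose release and strand setting are not given in the sources used here. The submitters' notes also name mm9 and HTSeq 0.9.1, without a role. The deposited FPKM were used as given.

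Groups came from the sample labels. The fit was limma 3.58.1 (R 4.3.3, lmFit and eBayes with trend) on log2(FPKM + 0.5) of the 3 control liver and 3 control muscle libraries, over genes with a mean of at least 0.5 FPKM, with Benjamini-Hochberg adjustment over all of them. DESeq2 and edgeR were not used, since the deposited unit is not counts. FPKM are whole multiples of 1 fragment: at the exon length of GENCODE vM21, 18343 of the 18822 genes above 0 gave whole fragments in all 18 libraries within 0.02, and 479 at another length, and these fragments served for depth, floors and voom. On simulated data for control liver against control muscle, with 11500 genes, 189 of 200 changed genes (94.5%) and 0 unchanged genes were called. The effect size and spread used there are not given here, and the share of genes recovered in the real libraries was not tested. The HSD libraries were fitted in the same way, and the interaction of tissue and diet over 12 libraries. Promoters were read from RefSeq on GRCm38.p6.

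Named genes were the markers, the 10 of highest mean FPKM and the 10 largest differences with separate libraries per tissue, both genes of each pair and, per list, the 3 of highest mean FPKM, the largest difference and any called against the rest. The members and lists were chosen with earlier results of these data known. Genes with at least 50% of exon bases inside another gene's exons are called uncertain. Alternatives were other scalings, pseudocounts, filters and weights, voom, blocks, and leaving out each library. No column was left unused for want of a sample (0 columns). Python 3.11.15, pandas 2.3.3, numpy 2.4.6 and matplotlib 3.10.9 were used. Some genes are not reported here.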

Additional observations from a re-analysis of the deposited data

Results flagged for a closer look

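The difference between liver and muscle itself differed between the diets in 3 of 11381 genes (limma interaction of tissue and diet on log2(FPKM + 0.5), Benjamini-Hochberg adjusted p under 0.05 and a difference of at least 1), and in 871 at an unadjusted p under 0.05. For Tpx2, a spindle protein of dividing cells, liver minus muscle was lower by -2.11 in the HSD libraries (adjusted p = 0.0126), with muscle at 1.45 to 2.11 FPKM in CON and 6.30 to 7.43 FPKM in HSD. For Parp16, an enzyme of the endoplasmic reticulum, it was higher by 1.85 (adjusted p = 0.0163), with liver at 4.36 to 5.06 FPKM in CON and 13.3 to 15.3 FPKM in HSD. For Dsg1c, a desmosomal cadherin, it was higher by 1.45 (adjusted p = 0.0282), with liver at 0.706 to 0.863 FPKM in CON and 2.40 to 3.08 FPKM in HSD. This interaction was refitted without CON16L, as given below, and was not examined for other single outlying libraries.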

How the results depend on the processing

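Median-ratio scaling gave 2774 genes higher in muscle, against 4320 in the fit reported, and, without CON16L, 2887 in liver and 3153 in muscle. Leaving out 1 library at a time gave 1780 to 1915 genes higher in liver and 4006 to 4738 in muscle. Without CON16L, the tissue difference differed between the diets in 12 genes (1712 at an unadjusted p under 0.05), with Tpx2, Parp16 and Dsg1c among them. Gm17662 had the smallest adjusted p of the 12 (1.14e-06, limma interaction). It stood at 10.9 FPKM in CON14L and 9.11 FPKM in CON72L, but at 0 in CON16L and in every HSD liver library. Its call therefore depends on leaving out CON16L. Parp16, in contrast, stood at 4.36 FPKM in CON16L, near its 5.06 and 4.87 FPKM in CON14L and CON72L. The cause of these differences was not tested. These alternatives without CON16L were chosen after the data were seen. The median level of called muscle genes in CON16L was 6.22% of the muscle level for coupling genes, against 9.83% for the sarcomere list.

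Some lists turned the side with more calls. Fatty acid oxidation genes higher in muscle numbered 6 with median-ratio scaling or with mitochondrially encoded genes left out, 8 with quantile normalization, 7 with the block on libraries numbered 16 and 72, and 8 without CON14L. Ribosomal protein genes higher in muscle numbered 2, 5, 2 and 8 with median-ratio scaling, with mitochondrially encoded genes left out, with that block and without CON14L. Without 1 library they numbered up to 26 (without CON16L). Lymphocyte markers higher in liver numbered 0 with that block and without CON14L, where 1 gene was tested. Secretory pathway genes higher in liver numbered 6 without CON16L, 4 without CON72L and 11 without CON14L. The cause was not tested. Of 213 named genes tested, 50 changed their call under at least 1 of 21 settings (27 lost a call and 23 gained one), and 0 turned direction.

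Whether any liver and muscle libraries came from one mouse was not settled, since correlations from 3 libraries a tissue cannot decide it. Libraries of the same replicate number had deviations correlated at 0.0859, -0.0268 and 0.0811. For libraries that share the number 16 or 72, the values were -0.00866 and 0.0811. With the replicate block by label number, 1897 genes were higher in liver and 4334 in muscle, and with libraries numbered 16 and 72 as fixed blocks 1923 and 4044. With 3 libraries a tissue, CON14L at 60.8% mitochondrial fragments and muscle genes in CON16L, a gene not called cannot be read as equal between tissues.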

Other observations

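Myh4 made up 94.3 to 95.7% of the summed FPKM of Myh1, Myh2, Myh4 and Myh7 in the HSD muscle libraries, against 87.6 to 90.1% in the control muscle libraries, and the groups did not overlap. The difference was not tested.

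Further genes were read in CON16L after its values were seen. Relative to the control muscle mean, Fabp3 stood there at 54.0%, Tnnt1 at 97.4% and Ldhb at 90.9%, while Myh4 stood at 1.57%. Genes known from heart muscle were low in CON16L, with Myh6 at 0.102 FPKM, Tnnt2 at 0.599 FPKM, Myl7 at 0.583 FPKM, Tnni3 at 0.0417 FPKM and Nppa and Ryr2 at 0. Of the limb position genes, Hoxc8 stood at 0.0304 FPKM in CON16L, against 1.20 to 2.03 FPKM in muscle. The source of the muscle RNA in CON16L was not tested.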
